A study of Mus musculus with 18 samples.

Results

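The immunity-related GTPases (IRG proteins) examined here are encoded by 7 mouse genes, Irgm1, Irgm2, Igtp, Iigp1, Tgtp1, Tgtp2 and Ifi47. They were taken by name from the 33440 genes of the series, and their levels were read in all 18 RNA-seq libraries. Adipocytes differentiated in culture from the stromal-vascular fraction (SVF) of inguinal fat of IRF3-2D mice, which carry a constitutively active Irf3 allele that is silent until Cre recombinase acts, were transduced with adeno-associated virus. The virus was AAV-GFP in the 3 WT libraries and AAV-GFP-Cre in the 3 FI3OE libraries, so that the groups are set apart by Cre itself as well as by the allele it switches on. In the second experiment, RNA bound to the ribosomes of adipocytes was collected by translating ribosome affinity purification (TRAP) with an anti-GFP antibody from epididymal fat (eWAT) of C57BL/6 mice, either WT (Ad-NuTRAP, 6 libraries) or adipocyte IRF3KO (FI3KO-Ad-NuTRAP, 6 libraries). All TRAP mice ate a high-fat diet (HFD) for 8 weeks at thermoneutrality. Adipoq-Cre, which acts in cells that express adiponectin, deletes Irf3 in FI3KO mice, and the tag was in adipocytes of both genotypes. Fat for SVF cultures was taken at 4 to 6 weeks of age. High-fat feeding was begun at 8 weeks of age, a statement made for feeding experiments in general and not for the TRAP mice by name. Each library is labelled as a biological replicate.

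IRG proteins are large GTPases whose genes are switched on by interferons. In mouse cells they act against bacteria and protozoa that live inside a membrane vacuole. Effector IRGs (Iigp1, Tgtp1, Tgtp2 and Ifi47 among the genes here) load onto the vacuole and break it, while the regulatory IRGs Irgm1, Irgm2 and Igtp sit on the cell's own membranes and hold the effectors inactive there. Igtp is also known as Irgm3 and is found on the endoplasmic reticulum and on lipid droplets, and Irgm1 and Irgm2 are found mainly on the Golgi apparatus. Interferon-gamma acts mainly through GAS elements in the promoters of its target genes, and type I interferon mainly through interferon-stimulated response elements (ISREs). IRF3 binds elements of the ISRE type.

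The bases before the transcript starts of 5 members are shown because each of these windows holds an ISRE motif, with a GAS motif beside it in 4 of the 5. Each window is the 250 bases before the start of the RefSeq transcript, read from RefSeq's GRCm38.p6 sequence on the gene's own strand, 5′ to 3′. Both strands were searched for an ISRE core, spelled GAAANNGAAA, and for a GAS motif, spelled TTCNNNGAA. Capitals mark the matches.
Irgm1 (chr11:48871421-48871670, minus strand): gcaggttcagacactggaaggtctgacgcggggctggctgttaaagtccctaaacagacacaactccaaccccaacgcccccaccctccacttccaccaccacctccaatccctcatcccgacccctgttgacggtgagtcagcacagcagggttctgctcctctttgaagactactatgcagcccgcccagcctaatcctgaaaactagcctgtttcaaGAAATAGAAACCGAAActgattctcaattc
Igtp (chr11:58199306-58199555, plus strand): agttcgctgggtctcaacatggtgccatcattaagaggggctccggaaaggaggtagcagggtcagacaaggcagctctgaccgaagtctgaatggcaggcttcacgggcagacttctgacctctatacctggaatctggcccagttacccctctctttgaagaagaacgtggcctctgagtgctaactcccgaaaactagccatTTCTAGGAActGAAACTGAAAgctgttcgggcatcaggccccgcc
Irgm2 (chr11:58214727-58214976, plus strand): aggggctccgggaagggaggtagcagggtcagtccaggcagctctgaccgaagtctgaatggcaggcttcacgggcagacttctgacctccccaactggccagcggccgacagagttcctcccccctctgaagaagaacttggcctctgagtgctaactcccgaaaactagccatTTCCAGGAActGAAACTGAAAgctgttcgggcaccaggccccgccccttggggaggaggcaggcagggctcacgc
Tgtp1 (chr11:48992247-48992496, minus strand): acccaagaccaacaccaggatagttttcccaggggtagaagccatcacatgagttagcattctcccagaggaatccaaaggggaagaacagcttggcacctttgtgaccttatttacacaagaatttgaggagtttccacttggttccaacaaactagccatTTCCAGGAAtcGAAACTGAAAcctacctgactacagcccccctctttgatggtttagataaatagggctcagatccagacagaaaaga
Tgtp2 (chr11:49064213-49064462, minus strand): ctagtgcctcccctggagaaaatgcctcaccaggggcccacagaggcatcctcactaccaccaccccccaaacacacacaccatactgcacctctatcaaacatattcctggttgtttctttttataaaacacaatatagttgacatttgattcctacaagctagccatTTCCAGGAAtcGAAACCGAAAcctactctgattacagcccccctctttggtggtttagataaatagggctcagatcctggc
In the windows of Igtp, Irgm2, Tgtp1 and Tgtp2, a GAS motif was followed after 2 bases by an ISRE core. The ISRE core lay at -34 to -25 from the start in Igtp, at -64 to -55 in Irgm2, at -77 to -68 in Tgtp1 and at -70 to -61 in Tgtp2. The window of Irgm1 held 2 overlapping ISRE cores, at -30 to -21 and at -24 to -15, and no GAS motif of these letters. No match was found in the window of Ifi47, which stands before a RefSeq start at 49076587 that is not the start of the transcript with most reads. Iigp1 was not examined. Among the 32851 windows of this length in the RefSeq table, 2.98% held the ISRE core, 7.02% the GAS motif and 0.332% both. A GAS motif that began 1 to 20 bases before a plus-strand ISRE core was found in 21 windows (0.0639%), 4 of which are the windows of Igtp, Irgm2, Tgtp1 and Tgtp2. This spacing was chosen after the sequences had been seen, and a match describes the letters, not the binding of a factor. Between the windows of Irgm2 and Igtp, 90.2% of 215 aligned bases were identical, and between those of Tgtp1 and Tgtp2, 77.0% of 222.

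**Figure D1:**
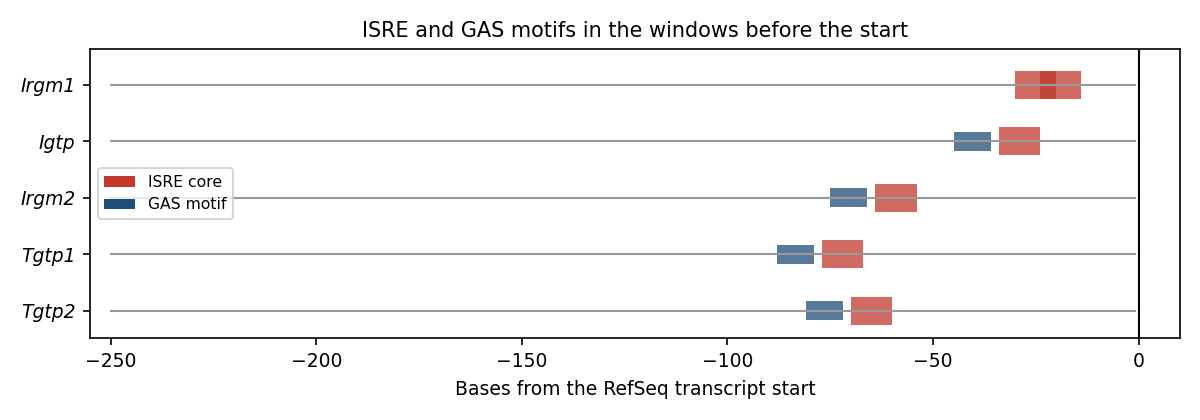
Positions of the ISRE core (red) and the GAS motif (blue) in the 250 bases before the RefSeq transcript start of 5 genes, with the distance from the start in bases on the x axis. In 4 genes the GAS motif lies just before the ISRE core, between -88 and -25, and in Irgm1 the 2 ISRE cores overlap.

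Of the 7 genes, 6 lie on chromosome 11 and 1, Iigp1, on chromosome 18 (GRCm38, GENCODE M21 annotation). Irgm1 (48861968 to 48871683), Tgtp1 (48985327 to 48994172) and Tgtp2 (49057194 to 49064206) are on the minus strand of chromosome 11, and Ifi47 (49076587 to 49096974) follows on the plus strand. Igtp (58199556 to 58207591) and Irgm2 (58199618 to 58222782) are both on the plus strand of that chromosome, and most of Igtp overlaps a long Irgm2 transcript, Irgm2-201. Iigp1 spans 60376027 to 60392634 on the plus strand. All 7 are annotated as protein-coding.

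Some members resemble each other closely, which limits how reads can be told apart. Of the 31-base words of Tgtp1-201, 5.80% occur in no other gene and 92.9% also occur in Tgtp2, and the 2 transcripts share 99.8% of 2810 aligned bases. For Tgtp2-201, 5.29% of the words are its own. The split of reads between Tgtp1 and Tgtp2 is therefore uncertain, and their sum is given beside the single values. For Igtp-201, 83.6% of the words are its own and 16.4% occur in Irgm2. The share that is unique was 88.4% for Iigp1-202 (8.46% shared with the related gene Gm4951), 90.1% for Irgm2-202, 95.3% for Ifi47-201 and 95.5% for Irgm1-202. The libraries do not keep the strand of the RNA, and Gm12185, another IRG gene, overlaps the Tgtp1 locus on the same strand.

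Libraries held between 21541334 and 40490283 reads, so that 3 reads, taken as the limit of detection, are worth between 0.0741 and 0.139 CPM, the reads scaled to the size of the library. Such limits cover counting error only. Reads of Irf3 were 56.8 to 58.6 CPM in WT and 90.8 to 100.3 CPM in FI3OE cells. In TRAP libraries they were 17.2 to 23.2 CPM in WT and 12.4 to 18.8 CPM in FI3KO (log2 fold change -0.35, standard error 0.11, edgeR adjusted p = 0.0198), and the groups overlapped. In TPM, which divide reads by transcript length before scaling, Irf3 was higher in FI3KO (55.1 to 93.5) than in WT (37.8 to 47.3), so the sum over its transcripts checks the deletion only in part. The 12 adipocyte markers summed to 14992 to 15851 TPM in the cultured cells and 41998 to 58602 TPM in TRAP. Markers of other cells were present, with 3251 to 3440 TPM for 16 macrophage markers in the cultured cells and 26.5 to 151 TPM in TRAP. The 11 T and NK cell markers summed to 20.4 to 26.3 TPM in WT and 22.6 to 26.4 TPM in FI3OE cells. Ifng, Nkg7 and Gzma were at 0 in both groups, and Cd52 and Cd3d were the ones with enough reads to test. Cd3d was lower in FI3OE (log2 fold change -1.13, edgeR adjusted p = 0.0326), and Cd52 had a value of 0.21 (edgeR adjusted p = 0.228). In these bulk samples, fewer cells of a type and less RNA per cell cannot be told apart.

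All 7 IRG genes were higher in FI3OE than in WT SVF-derived adipocytes. The rise was between 1.62-fold and 2.95-fold for 6 of them and 8.12-fold for Tgtp1, whose reads are shared with Tgtp2. An adjusted p of at most 0.05 together with a log2 fold change of at least 1, the cutoffs of the study, was met by 6 of 7, against a background of 1.99% of the 16105 genes tested that met both and were higher in FI3OE. The adjusted p alone was met by 7 of 7 (background 20.2% higher). The exception to the fold cutoff was Irgm2. The median log2 fold change of the 7 was 1.28, and that of all genes tested was -0.0047.

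Among the regulatory IRGs, Igtp was at 59.8, 57.8 and 60.8 CPM in the 3 WT libraries and at 148, 142 and 139.7 CPM in the 3 FI3OE libraries. All FI3OE libraries were well above all WT libraries, and the log2 fold change was 1.28 (95% interval 1.21 to 1.36, edgeR adjusted p = 1.34e-09). Irgm1, which also has a role in autophagy and in the handling of mitochondria, was at 80.9, 82.2 and 84.8 CPM in WT and at 201, 192 and 176 CPM in FI3OE. The groups did not overlap here either, with a log2 fold change of 1.21 (1.11 to 1.31, edgeR adjusted p = 1.3e-08). Irgm2 had 141, 144 and 139 CPM in WT and 232, 227 and 221 CPM in FI3OE. Its libraries were also fully separated, but the log2 fold change was 0.70 (0.63 to 0.77, edgeR adjusted p = 6.21e-08). This interval lies below those of the other 6 members. The TPM ratio of Irgm2 to Igtp was 1.095 to 1.182 in WT and 0.759 to 0.777 in FI3OE, so that the order of the 2 neighbouring genes was opposite in the groups, without overlap.

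Of the effector IRGs, Iigp1 (also known as Irga6) had the most reads, with 183, 181 and 179 CPM in WT and 435, 398 and 413 CPM in FI3OE. Every FI3OE library was over every WT library, and the log2 fold change was 1.22 (1.14 to 1.29, edgeR adjusted p = 1.93e-09). Ifi47, also known as Irgd, was at 44.9, 43.3 and 44.4 CPM in WT and 108, 105.4 and 104.5 CPM in FI3OE. The groups did not overlap, and its log2 fold change was 1.28 (1.21 to 1.35, edgeR adjusted p = 1.08e-09). Tgtp2 was at 20.6, 17.2 and 17.9 CPM in WT and 56.2, 57.9 and 48.7 CPM in FI3OE, a log2 fold change of 1.56 (1.41 to 1.72, edgeR adjusted p = 4.9e-08). Tgtp1 was at 2.67, 0.464 and 1.64 CPM in WT and 14.0, 14.0 and 11.4 CPM in FI3OE, a log2 fold change of 3.02 (2.40 to 3.64, edgeR adjusted p = 1.83e-05). Both genes, which together are known as Irgb6, were separated between the groups, and the wider interval of Tgtp1 goes with its low WT level. Summed as 1 gene, Tgtp1 and Tgtp2 were at 23.2, 17.7 and 19.5 CPM in WT and 70.1, 71.9 and 60.1 CPM in FI3OE, with a log2 fold change of 1.75 (standard error 0.09, edgeR adjusted p = 6.13e-08). For each of the 7 members all 3 FI3OE libraries were above all 3 WT libraries, as were those of 24.1% of all genes tested, and the two-sided exact permutation test gave p = 0.1, the smallest that 3 libraries against 3 allow.

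**Figure D2:**
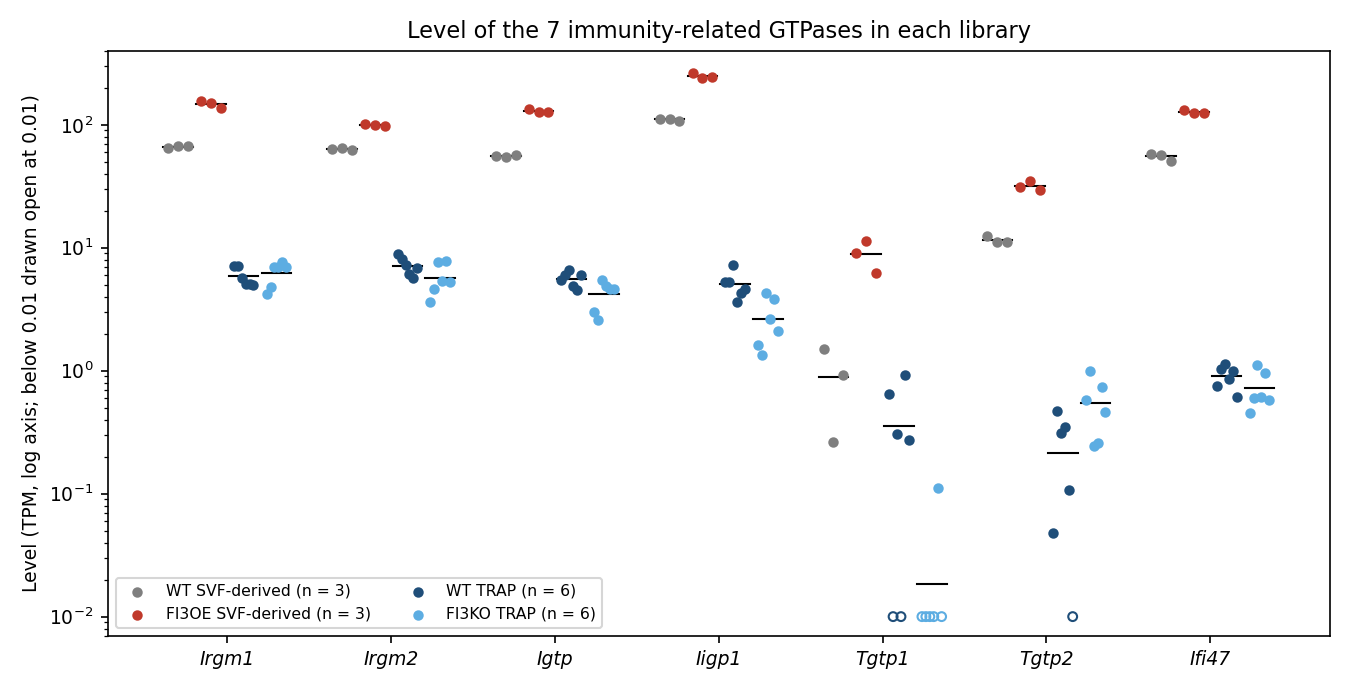
Level of the 7 genes in each of the 18 libraries, in TPM on a log axis, with a dot for each library and a line at the group mean; libraries below the axis minimum are drawn open at its foot. The FI3OE libraries (red) are above the WT SVF-derived libraries (grey) for every gene, and the TRAP libraries (blue) are lower than both for every gene but Tgtp1, whose WT TRAP and WT SVF-derived libraries overlap, with mean levels from 0.0185 to 7.17 TPM.

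Read per transcript length, Iigp1 was the most abundant member in WT SVF-derived adipocytes, at 110.4 ± 2.24 TPM (SD, n = 3), more than 90.3% of the 14900 genes with at least 1 TPM. Irgm1 (66.4 ± 1.57 TPM) and Irgm2 (63.6 ± 1.46 TPM) came next, and their ranges, 64.6 to 67.5 and 62.3 to 65.2 TPM, overlapped. Igtp (56.1 ± 0.88 TPM) and Ifi47 (55.3 ± 3.91 TPM) also overlapped, and Tgtp2 (11.5 ± 0.82 TPM) and Tgtp1 (0.89 ± 0.62 TPM) were lowest. In FI3OE, Iigp1 reached 249 ± 11.6 TPM, above 96.2% of genes with at least 1 TPM, and was followed by Irgm1 at 148 ± 9.68 TPM. Igtp (130.1 ± 4.00 TPM) and Ifi47 (128 ± 4.40 TPM) had overlapping ranges and were both above Irgm2 (99.7 ± 2.40 TPM), with Tgtp2 at 32.1 ± 2.85 TPM and Tgtp1 at 8.89 ± 2.61 TPM. Irgm2 thus went from the third place to the fifth. The sum over all 7 was 358 to 368 TPM in WT and 770 to 828 TPM in FI3OE. The 4 effectors summed to 0.915 to 0.993 of the 3 regulatory genes in WT and to 1.09 to 1.12 in FI3OE. Among the regulatory genes Irgm2 rose least, and the folds of Igtp and Irgm1 were close to those of Iigp1 and Ifi47, so the shift is not one of all members of a class. The ratio of Iigp1 to Irgm1 was 1.60 to 1.72 in WT and 1.60 to 1.79 in FI3OE and did not separate the groups.

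Other IRG genes of the mouse were also measured. Of 8 tested, 5 passed the adjusted p and were higher in FI3OE, and 2 of these met both cutoffs. Gm4841 (log2 fold change 1.52) and Gm4951 (1.06) were the ones past both, followed by F830016B08Rik (0.91), 9930111J21Rik1 (0.89) and 9930111J21Rik2 (0.68). Gm12185 (0.43, edgeR adjusted p = 0.231), Gm5431 (0.19, edgeR adjusted p = 0.139) and Irgq (0.06, edgeR adjusted p = 0.286), a distant relative of the family, did not pass. Gm12250 was not analysed here.

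Genes of the interferon pathway itself were compared next. Of 17 signalling genes, 9 were higher and 2 lower by the adjusted p (8 and 2 of 16 without Irf3, the gene that was manipulated). Of all genes tested, 20.2% were higher and 16.8% lower. Past both cutoffs 2 of the 17 were higher (background 1.99%), and their median log2 fold change was 0.36 over all 17. Usp18, a brake on the type I receptor, had the largest value (1.41), followed by the transcription factor Irf7 (1.23). The log2 fold change was 0.64 for Irf1 and 0.63 for Irf9, both past the adjusted p, and 0.17 for Irf8 (edgeR adjusted p = 0.207). The receptor chains Ifnar1 (-0.23) and Ifngr1 (-0.17) had the lowest values and were lower. The receptor chain Ifnar2 was higher (0.36, edgeR adjusted p = 3.15e-04), and Ifngr2 (0.13, edgeR adjusted p = 0.0724) did not pass. The other interferon-induced GTPases, guanylate-binding proteins that work together with IRGs on vacuoles among them, numbered 10 tested, of which 9 were higher by the adjusted p and 7 past both cutoffs. Their median was 1.39, and their range reached from 0.57 for Gbp8 (edgeR adjusted p = 0.084) to 2.17 for Gbp10, with 1.66 for Gbp9 and 0.86 for Gbp6.

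Genes whose products meet IRGs in the cell were counted in the same way. Among 15 genes of the ATG8 conjugation machinery, known to direct IRGs to their target membrane, 4 were higher (Atg4a, 0.45, and Gabarapl2, 0.20, had the highest values; 20.2% of all genes were higher and 16.8% lower) and 2 were lower, Gabarapl1 (-0.49) and Atg16l1 (-0.16). Of 10 genes that mark vacuoles with ubiquitin or read that mark, 7 were higher and 0 lower by the adjusted p, with the highest values for the ubiquitin ligases Trim21 (0.94) and Rnf213 (0.56). Among 7 genes for coats and partners of lipid droplets, the organelle on which Igtp is found, 3 were higher, Plin2 (0.77) and Plin5 (0.31) among them and 2 were lower, Plin4 (-0.23) and Cidea, which was at 0.603 to 1.06 CPM in WT and at 0.0369 to 0.0542 CPM, below the limit of detection, in FI3OE and was past both cutoffs. Of 12 adipocyte markers, 3 were higher and 5 lower by the adjusted p, and 0 met both cutoffs. The macrophage markers, summed, were at 3251 to 3440 TPM in WT and 3386 to 3389 TPM in FI3OE, and of 16, 4 were higher and 4 lower by the adjusted p (Mrc1 lowest at -0.87) and 0 met both cutoffs. The markers of preadipocytes and fibroblasts summed to 7727 to 7911 TPM in WT and 9089 to 9132 TPM in FI3OE. Of these 11, 3 were higher and 3 lower by the adjusted p, 1 of them (Ly6a, 1.83) past both cutoffs, with a median log2 fold change of 0.04. Their part in the rise of the IRG genes was not tested.

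**Figure D3:**
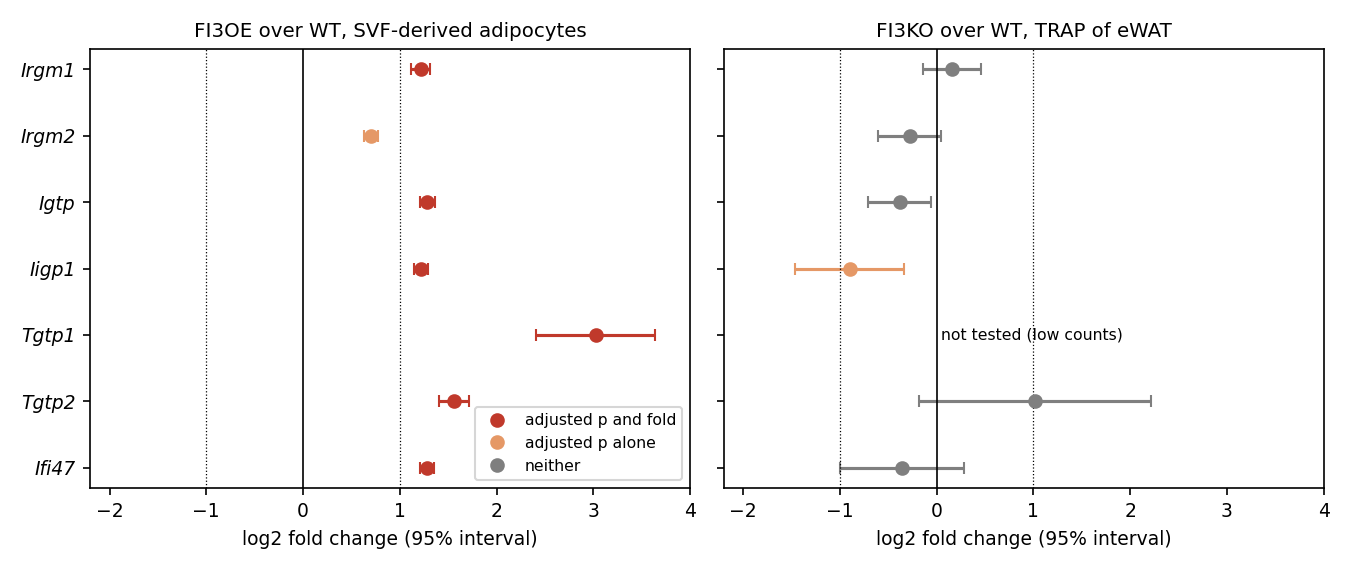
The log2 fold change of each member with its 95% interval, FI3OE over WT in SVF-derived adipocytes (left) and FI3KO over WT in TRAP libraries (right), with dotted lines at a change of 1 in either direction. On the left 7 of 7 intervals lie above 0 and 6 points lie beyond 1, and on the right Iigp1 (-0.90) is the point past the adjusted p.

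In the TRAP libraries of eWAT, Iigp1 was lower in FI3KO than in WT, and it was the one of the 6 tested members that passed the adjusted p. Both cutoffs were met by 0 of 6 tested (background 6.61% of 13624 genes in either direction). Past the adjusted p, 1 of 6 was lower, a share close to the 18.3% of all genes that were lower. None of the 6 was free of overlap between the genotypes (background 5.39% higher and 9.82% lower in FI3KO). The fitted value was below 0 for 4 of 6. At an unadjusted p under 0.05 there were 2, Iigp1 and Igtp. In DESeq2, 0 of 6 met both cutoffs as well. The median log2 fold change was -0.32 over the 6 members and 0.02 over all genes.

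Iigp1 ranged from 6.17 CPM over a median of 8.14 to 12.4 CPM in WT and from 1.93 over 4.28 to 7.49 CPM in FI3KO. The groups overlapped, since FI3KO replicates 3 and 5 were above the lowest WT library. The log2 fold change was -0.90 (95% interval -1.46 to -0.34, edgeR adjusted p = 0.0249), which corresponds to 0.536 of the WT level, and the two-sided exact permutation test over 6 and 6 libraries gave p = 0.0108. The adjusted p was 0.0532 without FI3KO replicate 6, 0.0647 without WT replicate 3 and 0.0865 in replicates 3 to 6 alone, and over all alternatives it ranged from 0.00586 to 0.0865 (edgeR or DESeq2).

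The regulatory genes differed less. Igtp ranged from 4.58 over a median of 5.68 to 6.64 CPM in WT and from 2.62 over 4.48 to 5.34 CPM in FI3KO, with overlap. Its log2 fold change was -0.38 (-0.71 to -0.06, edgeR adjusted p = 0.0872, exact permutation p = 0.0303). Irgm2 ranged from 12.5 over 14.9 to 18.8 CPM in WT and from 7.78 over 11.3 to 16.5 CPM in FI3KO, a log2 fold change of -0.28 (-0.60 to 0.05, edgeR adjusted p = 0.209, exact permutation p = 0.0952). Irgm1 ranged from 5.55 over 6.26 to 8.18 CPM in WT and from 5.09 over 7.96 to 8.76 CPM in FI3KO, and its log2 fold change of 0.16 (-0.14 to 0.46, edgeR adjusted p = 0.445, exact permutation p = 0.535) had the opposite sign. The ranges of all 3 genes overlapped between the genotypes. In the TRAP libraries the reads of Irgm2 fell on different transcripts from library to library, and Irgm2-201, which overlaps Igtp, took from 0% to 76.6% of them in WT.

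The remaining effectors were close to the limit of detection in TRAP. Ifi47 ranged from 0.431 over 0.638 to 0.952 CPM in WT and from 0.247 over 0.438 to 0.888 CPM in FI3KO (log2 fold change -0.36, -0.997 to 0.28, edgeR adjusted p = 0.413). Tgtp1 had reads in 4 of 6 WT libraries, up to 0.699 CPM, and in 1 of 6 FI3KO libraries, at 0.187 CPM, and was not tested for lack of reads in edgeR (exact permutation p = 0.106). Tgtp2 ranged from 0 over 0.360 to 0.791 CPM in WT and from 0.407 over 0.645 to 1.23 CPM in FI3KO (log2 fold change 1.01, -0.19 to 2.22, edgeR adjusted p = 0.209). The sum of Tgtp1 and Tgtp2 was 0.464 to 0.887 CPM in WT and 0.407 to 1.23 CPM in FI3KO, a log2 fold change of 0.20 (standard error 0.32, edgeR adjusted p = 0.656), so no difference was detectable at this depth.

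The levels of all single members overlapped between the genotypes in TRAP, while some ratios between members did not. The TPM sum of the 4 effectors was 0.299 to 0.461 of that of the 3 regulatory genes in WT and 0.185 to 0.283 in FI3KO, without overlap but with neighbouring ends. Iigp1 made up most of the effector sum, at 19.9 ± 2.84% (SD, n = 6) of the TPM of all members in WT and 12.7 ± 2.83% in FI3KO, while Ifi47 held 3.61 ± 0.81% and 3.56 ± 0.59% and Tgtp1 and Tgtp2, between which the split of reads is uncertain, 1.47 ± 1.61% and 0.85 ± 0.73% in WT and 0.07 ± 0.18% and 3.06 ± 2.15% in FI3KO. The TPM ratio of Iigp1 to Irgm1 was 0.708 to 1.28 in WT and 0.283 to 0.623 in FI3KO, again without overlap. In replicates 1 and 2 this ratio was 0.732 and 0.740 in WT against 0.387 and 0.283 in FI3KO, and in replicates 3 to 6 it was 0.708 to 1.28 against 0.298 to 0.623, so that the genotypes were separated in both sets. These ratios were chosen with the values known and are given with no test.

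The difference between FI3KO and WT was not the same in all TRAP libraries. Libraries numbered 1 and 2 stand apart from those numbered 3 to 6 over many genes, a split that an earlier look at these data had shown. In WT, the mean chi-square per gene was 73.1 to 95.7 between the sets and 7.96 to 41.9 within replicates 3 to 6. FI3KO replicates 3 and 4 were also as far from replicates 5 and 6 (45.6 to 73.0) as the sets were from each other (41.3 to 78.2), and close to one another (11.9 and 12.6 within these pairs). WT replicates 1 and 2 were the closest pair of all, at 2.53, and the labels do not name the mouse behind a library. The labels name no batch, so the sets are only ranges of replicate numbers. The effect of FI3KO differed between the sets for 4 of 6 members in edgeR's interaction test, each with a lower value in replicates 1 and 2, against a background of 12.8% of genes that differed in this direction. The split was chosen with these data known, so the p-values of this test and within the sets describe these libraries only.

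Irgm1 was at 8.18 and 8.10 CPM in WT replicates 1 and 2 and at 5.09 and 5.55 CPM in FI3KO replicates 1 and 2. In replicates 3 to 6 it was at 5.55 to 6.54 CPM in WT and 7.86 to 8.76 CPM in FI3KO. The genotypes stood in opposite order in the sets, and how many of all genes do so was not counted. The log2 fold change was -0.56 in replicates 1 and 2 (edgeR adjusted p = 0.0228) and 0.51 in replicates 3 to 6 (edgeR adjusted p = 2.87e-04). The difference between these was -1.07 (standard error 0.15, edgeR adjusted p = 3.18e-04). In a fit of replicates 1 and 2 alone the adjusted p of Irgm1 was 0.0748, and in one of replicates 3 to 6 alone it was 9.98e-04 (edgeR).

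Irgm2 was at 18.8 and 16.9 CPM in WT replicates 1 and 2 and at 7.78 and 9.91 CPM in their FI3KO counterparts, while the ranges in replicates 3 to 6, 12.5 to 15.3 and 11.1 to 16.5 CPM, overlapped. Its log2 fold change was -0.95 in the first set and 0.05 in the second, a difference of -0.999 (standard error 0.23, edgeR adjusted p = 0.00849). Igtp was at 5.40 and 6.00 CPM in WT replicates 1 and 2 and at 2.91 and 2.62 CPM in FI3KO, against overlapping ranges of 4.58 to 6.64 and 4.47 to 5.34 CPM in replicates 3 to 6. The values for Igtp were -0.998 and -0.14, a difference of -0.86 (standard error 0.22, edgeR adjusted p = 0.0146), and the adjusted p was 0.057 without FI3KO replicate 2 and 0.0701 without WT replicate 2. Iigp1 was at 8.48 and 9.19 CPM in WT and 2.40 and 1.93 CPM in FI3KO replicates 1 and 2, and at 6.17 to 12.4 and 3.60 to 7.49 CPM in replicates 3 to 6. Its log2 fold change was -1.97 in replicates 1 and 2 (edgeR adjusted p = 0.0111) and -0.55 in replicates 3 to 6 (edgeR adjusted p = 0.0621). The difference of -1.43 (standard error 0.42, edgeR adjusted p = 0.0257) was no longer past the threshold in 5 of 19 alternatives, with adjusted p from 0.00546 to 0.1003 over all 19 (edgeR). Irgm1 and Irgm2 passed in all 19. With WT replicates 1 and 2 counted as 1 library, an alternative chosen after seeing the data, the adjusted p was 0.00247 for Irgm1, 0.0308 for Irgm2, 0.0436 for Igtp and 0.0667 for Iigp1 (edgeR).

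**Figure D4:**
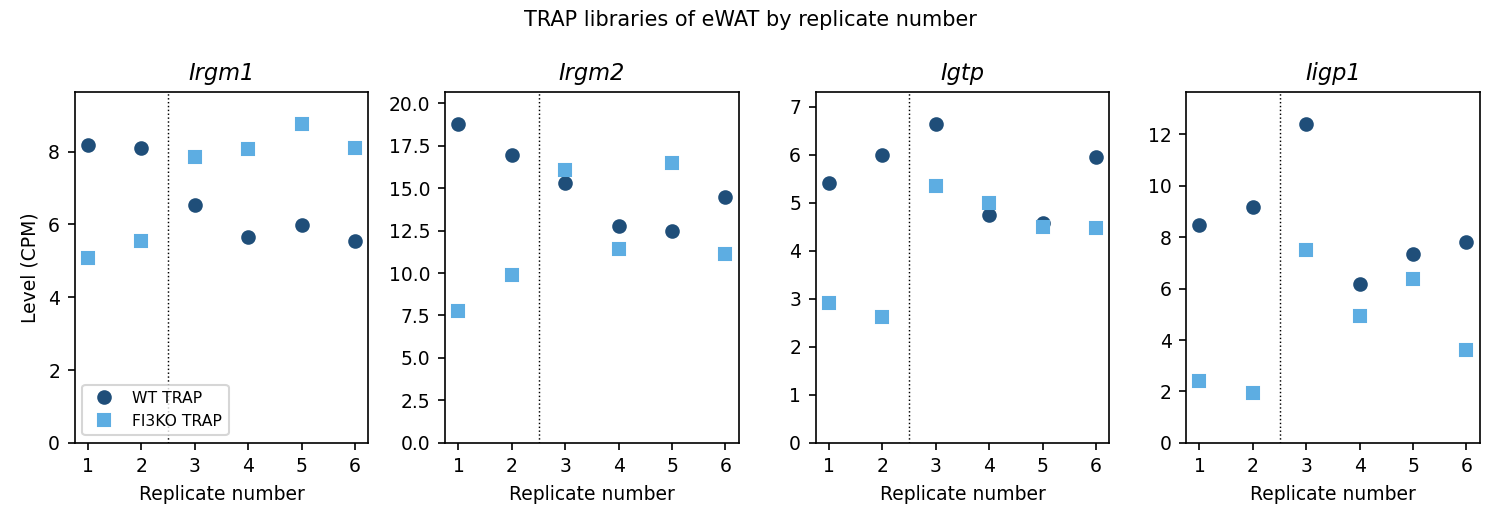
Levels in CPM of 4 genes in the 12 TRAP libraries, WT as circles and FI3KO as squares, by replicate number, with a dotted line between replicates 1 and 2 and replicates 3 to 6; equal numbers do not pair libraries. Irgm1 is lower in FI3KO on the left of the line (5.09 and 5.55 against 8.18 and 8.10 CPM) and higher on its right, and Iigp1 is lowest in FI3KO replicates 1 and 2.

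Markers of other cells moved between the sets as well. The macrophage markers summed to 59.2 and 59.6 TPM in WT and 48.1 and 59.4 TPM in FI3KO replicates 1 and 2, and to 107 to 151 TPM in WT and 26.5 to 32.7 TPM in FI3KO replicates 3 to 6. Of 14 tested, 12 differed between the sets with a higher value in replicates 1 and 2, opposite in sign to the 4 IRG genes, and 1 differed with a lower one. The preadipocyte and fibroblast markers did so for 8 and 1 of 10. With the same sign as the 4 IRG genes, 5 of 12 adipocyte markers and 3 of 7 lipid droplet genes differed, and 1 of each differed with the opposite sign. The adipocyte markers summed to 50368 and 50713 TPM in WT and 46115 and 46552 TPM in FI3KO replicates 1 and 2, and to 41998 to 45736 and 52097 to 58602 TPM in replicates 3 to 6. Over all replicates, 6 of 12 adipocyte markers were higher by the adjusted p and 1 was lower (19.1% and 18.3% of all genes tested). Cfd (1.83) had the highest value and Lep (-1.63) the lowest. Over the same libraries the macrophage markers were at 59.2 to 151 TPM in WT and 26.5 to 59.4 TPM in FI3KO, with 11 of 14 lower by the adjusted p and 1, Cd14, higher. The preadipocyte and fibroblast markers summed to 587 to 1290 TPM in WT and 384 to 645 TPM in FI3KO. Of 10 tested, 3 were lower by the adjusted p, Col1a1 (-1.82) and Dpp4 (-1.50) among them, and 1, Dcn (1.36), was higher. The T and NK cell markers summed to 4.55 to 9.14 TPM in WT and 0.83 to 5.31 TPM in FI3KO, and the 1 tested, Trac, was lower (-1.47, edgeR adjusted p = 0.00645). The endothelial markers were at 25.6 to 47.4 TPM in WT and 29.2 to 107 TPM in FI3KO, with 1 of 8, Cldn5 (1.18), higher and 0 lower, and 3 of 8 differed between the sets with a higher value in replicates 1 and 2. The part of these markers in the values of the IRG genes was not tested. The 7 members summed to 28.0 and 28.3 TPM in WT and 13.4 and 14.9 TPM in FI3KO replicates 1 and 2, and to 20.9 to 28.4 and 19.99 to 25.8 TPM in replicates 3 to 6.

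Other genes of the pathway were examined for the same split. None of Irf1, Irf9 and Irf7 differed between the sets by the adjusted p, nor did Ifi47 (difference -0.84, edgeR adjusted p = 0.389) and Tgtp2 (0.02, edgeR adjusted p = 0.996). Of 17 signalling genes 4 differed, all with a higher value in replicates 1 and 2, a direction in which 13.7% of all genes differed. Of 9 other interferon-induced GTPases 1 differed, Gbp7 (-0.81). Of 5 other IRG genes 1 differed, with a higher value in replicates 1 and 2.

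In the comparison of all 12 TRAP libraries, the other IRG genes gave 1 of 5 lower by the adjusted p, F830016B08Rik (-0.66, edgeR adjusted p = 0.0323). The values of 9930111J21Rik1 (-0.81), 9930111J21Rik2 (-0.43), Gm4951 (0.41) and Irgq (0.14) did not pass. Of 9 other interferon-induced GTPases, 4 were lower and 0 higher, 2 of them past both cutoffs, Gbp10 (-1.34) and Gbp6 (-1.02), with Gbp2 (-0.65) and Gbp5 (-0.49) past the adjusted p. The summed level of this list was 88.3 to 107 TPM in WT and 51.99 to 73.7 TPM in FI3KO, without overlap. Of 17 signalling genes, 7 were lower and 2 higher (6 and 2 of 16 without Irf3, the deleted gene). Socs1, an inhibitor of interferon receptors, was higher (1.15), as was Irf1 (0.21), and Irf8, which macrophages express, was lower (-2.64). Also lower by the adjusted p were the receptor chains Ifngr2 (-0.50), Ifnar2 (-0.49), Ifngr1 (-0.37) and Ifnar1 (-0.31), and Jak1 (-0.29). The log2 fold changes of Irf9 (0.22) and Irf7 (0.05) did not pass. Of 15 genes for ATG8 conjugation 6 were higher and 4 lower (of all genes tested, 19.1% were higher and 18.3% lower), with Atg4d (0.49) and Gabarapl1 (0.37) highest and Atg12 (-0.45) and Atg3 (-0.28) lowest. Of 10 genes for ubiquitin on vacuoles 1 was higher, Traf6 (0.28), and 4 were lower, Optn (-0.37) among them. Of 7 lipid droplet genes, Plin1 was higher (0.26) and Plin2 lower (-0.58).

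At baseline, IRG genes were much lower in WT TRAP libraries than in WT SVF-derived adipocytes. In edgeR, 6 of 7 members met both cutoffs and were lower in TRAP, against 29.5% of the 16454 genes tested. The adjusted p alone was passed by the same 6, all lower (background 42.1% lower). The log2 fold change was -2.76 for Irgm2, -2.96 for Igtp and -3.17 for Irgm1 among the regulatory genes. It was -3.94 for Iigp1, -5.15 for Tgtp2 and -5.54 for Ifi47 among the effectors, so that these lay lower than the regulatory genes. Tgtp1 had a value of -1.89 (standard error 0.92, edgeR adjusted p = 0.0814), and the sum of Tgtp1 and Tgtp2 one of -4.42 (standard error 0.17, edgeR adjusted p = 3.39e-09). For these 6 members no TRAP library reached any SVF-derived library, as for 55.9% of all genes tested, and the two-sided exact permutation test gave p = 0.0238, the smallest that 6 and 3 libraries allow (p = 0.0952 for Tgtp1). The median over all genes was -0.07 after TMM scaling, whose factors were 0.876 to 0.923 for TRAP and 1.23 to 1.24 for the SVF-derived libraries. Depot, age, the alleles carried, culture, diet, the RNA fraction, the virus and the experiment differ together between these groups and cannot be told apart. The summed markers of macrophages and of preadipocytes and fibroblasts were also far higher in the cultured cells. By the adjusted p, 14 of 16 and 9 of 11 of them were lower in TRAP, and 1 of each list, Cd74 and Dpp4, was higher. Of 8 endothelial markers tested, 5 were higher in TRAP and 2 lower.

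Per transcript length, the order of the members was different in WT TRAP libraries. Irgm2 was highest at 7.17 ± 1.21 TPM (SD, n = 6), followed by Irgm1 at 5.85 ± 1.01, Igtp at 5.58 ± 0.79 and Iigp1 at 5.04 ± 1.24 TPM. These neighbours overlapped in their ranges. Ifi47 was at 0.90 ± 0.19 TPM, and Tgtp1 (0 to 0.921 TPM) and Tgtp2 (0 to 0.468 TPM) had libraries without a read. Iigp1, above 90.3% of the detected genes in cultured WT cells, was above 21.1% of them in TRAP. In FI3KO the order was Irgm1 (6.23 ± 1.403 TPM), Irgm2 (5.72 ± 1.69), Igtp (4.19 ± 1.14) and Iigp1 (2.64 ± 1.204), again with overlap between neighbours, and then Ifi47 (0.72 ± 0.26). The 7 genes summed to 20.9 to 28.4 TPM in WT and 13.4 to 25.8 TPM in FI3KO.

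The genes whose levels were most like those of the members over the 18 libraries were interferon-induced genes outside the GTPase families. Each member was scaled to the same mean and spread, and the average of the 7 was correlated with each of 11374 other genes. Pearson's r was highest for Ifih1 and Ddx58 (both 0.996), which encode sensors of viral RNA, and for Trim30a, Cmpk2 and Herc6 (each 0.994). These points share experiment and depth, and the gap between the cultured cells and TRAP weighs most in them. With group means removed, each member was compared with the average of the other 6, which gave an r of 0.856 for Iigp1, 0.838 for Irgm2, 0.776 for Irgm1, 0.694 for Igtp and 0.632 for Ifi47, but -0.02 for Tgtp1 and -0.09 for Tgtp2, whose reads cannot be split with certainty. Among the other genes the highest values were those of Tcp11l1 and Tlr4 (both 0.915), Umad1 (0.912), Zfp706 (0.910) and Ncoa5 (0.902). Tlr4 encodes the receptor for bacterial lipopolysaccharide. The split between the TRAP replicate sets remains once group means are removed, and its part in these correlations was not tested.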

How the data were processed

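RNA-seq of mouse SVF-derived adipocytes (WT and FI3OE, 3 libraries each) and of TRAP RNA from eWAT (WT and FI3KO, 6 each) was analysed, with groups and replicate numbers taken from the labels. The authors trimmed reads with bcl2fastq and fastp and quantified GENCODE M24 transcripts (GRCm38) with Salmon 1.4.0, with sequence and GC bias correction. They deposited estimated counts, which are neither whole nor normalized, and TPM for each of 118733 transcripts. Here estimated counts were summed per gene with GENCODE M21, which matched 99.3% of transcripts (883 were kept as genes of their own), and rounded.

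Each comparison was fitted in edgeR 4.0.16 (R 4.3.3) by its quasi-likelihood test after TMM scaling and its default expression filter, adjusted by the Benjamini-Hochberg method over all genes tested, with cutoffs of an adjusted p of 0.05 and an absolute log2 fold change of 1. The script was tested on simulated data. Intervals are 95% normal intervals from the estimate and its standard error on the log2 scale, and are somewhat narrower than the quasi-likelihood test implies. Two-sided exact permutation tests on log2(CPM + 0.1) were run with scipy 1.17.1 in Python 3.11.15. TPM, summed per gene, were used for levels per transcript length. DESeq2 1.42.0 and other settings were alternatives. Named genes were all members, the other IRG genes, Irf3, and of each list the genes with the 2 highest and 2 lowest values, except that some genes of the lists are not reported here by name. The members and lists were chosen with earlier results of these data known. P-values measure the spread between these libraries. Libraries held 21541334 to 40490283 reads. The promoter sequences come from RefSeq.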

Additional observations from a re-analysis of the deposited data

Results flagged for a closer look

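Levels of 7 members in the 2 groups of 6 libraries (14 groups in all) were searched for a library far from the rest, which chance alone gives for about 1 in 20 groups. One was found. Tgtp1 was at 0.187 CPM in FI3KO TRAP replicate 5 and at 0 in the other 5 FI3KO libraries. Beside 5 values of 0 any value above 0 stands out in this way, and this one rests on 7.57 estimated reads that are hard to tell from those of Tgtp2.

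The effect of FI3KO differed between TRAP replicates 1 and 2 and replicates 3 to 6 for 4 genes in edgeR's interaction test, with a difference in log2 fold change of -1.07 for Irgm1 (adjusted p = 3.18e-04), -0.999 for Irgm2 (adjusted p = 0.00849), -0.86 for Igtp (adjusted p = 0.0146) and -1.43 for Iigp1 (adjusted p = 0.0257). All 4 values have the same sign, and the split into these sets was chosen with the data known. The macrophage markers, of which 12 of 14 differed with the opposite sign, moved between the same libraries, and 5 of 12 adipocyte markers differed with the same sign as the 4 genes. The part of either in the differences was not tested.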

How the results depend on the processing

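In SVF-derived adipocytes each of the 7 members met the adjusted p in every alternative that gave a value for it. All but Irgm2 also met the fold cutoff in each of these, with log2 fold changes from 0.69 (Irgm2) to 3.58 (Tgtp1). Where Tgtp1 and Tgtp2 were summed, they counted as 1 gene, with a log2 fold change of 1.75. The counts over all genes moved more. Both cutoffs were met by 583 genes there, by 342 when all 18 libraries shared 1 fit and by 551 to 623 with single libraries left out, and 5960 passed the adjusted p alone. In TRAP the count was 901 genes, 574 with a minimum of 10 counts in every library, 1355 in the 18-library fit, 191 in replicates 1 and 2 alone, 1868 in replicates 3 to 6 alone and 761 to 1115 with single libraries left out, and 5095 passed the adjusted p alone. At baseline it was 7719, 4035 with the minimum of 10 counts and 7535 to 7804 with single libraries left out, and 13195 passed the adjusted p alone.

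Members past the adjusted p in TRAP numbered 1, 2 in the 18-library fit, 3 in replicates 1 and 2 alone and 0 to 1 with single libraries left out. Members past both cutoffs in TRAP numbered 0, 1 with the adjusted p alone, 1 in replicates 1 and 2 alone and 0 to 1 with single libraries left out (1, Iigp1, without FI3KO replicate 3 or 5). At baseline 6 to 7 members met both cutoffs, and 6 to 7 the adjusted p, with single libraries left out, since Tgtp1 passed without WT TRAP replicate 1. The effect of FI3KO differed between the replicate sets for 3613 genes, 2061 with WT TRAP replicates 1 and 2 as 1 library (an alternative chosen after seeing the data) and 2033 to 3874 with single libraries left out, the lowest without WT replicate 2 and 2107 without WT replicate 1. It differed for 4 members, and for 2 to 4 with single libraries left out (2 without FI3KO replicate 2 or WT replicate 2). The causes were not tested.

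The sign turned for Irgm1 in TRAP replicates 1 and 2 alone (-0.55) and for Irgm2 in replicates 3 to 6 alone (0.048). The difference of Tgtp2 between the sets was -0.069 without a filter on low counts, -0.0074 without Gm26917, Gm42418 and mitochondrial genes, -0.075 with WT replicates 1 and 2 as 1 library and -0.82 to 2.68 with single libraries left out. WT TRAP replicates 1 and 2 were the closest pair of libraries, with a mean chi-square of 2.53 per gene (median 0.774) against a mean of 3.74 or more in other pairs. The chi-square takes reads as independent and covers counting error only, so it cannot tell separate mice from repeat libraries of 1 mouse. The labels do not say whether these 2 libraries came from separate mice.

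Same-numbered libraries did not deviate together (r from -0.38 to 0.10), so the numbers do not pair them. With the replicate block the counts were 579 genes in SVF-derived adipocytes, 736 in TRAP and 7694 at baseline, with 6, 0 and 7 members past both cutoffs (at baseline Tgtp1 was added). Tgtp1 and Tgtp2 are limited by shared sequence, and in TRAP by counts near the limit of detection. The DESeq2 Wald test was not run for the difference between replicate sets.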
